A study of Homo sapiens with 15 samples.

Results

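MAF, MAFF, MAFG and MAFK are transcription factors of the MAF family, and DEPTOR and NUAK1 are genes that have been described as targets of MAF in multiple myeloma. The 6 genes were taken by symbol, each matched 1 Ensembl identifier, and together they are 6 of the 47459 gene rows of the expression table used here. All 6 passed the filter on low values (a normalized read count of 5 or more in at least 3 libraries), so none was lost to it.

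Their RNA was measured in MM.1S, an established multiple myeloma cell line in which a translocation places MAF at the immunoglobulin heavy chain locus. The groups were cells treated with DMSO, the solvent control, with A-485, with GNE-781, with A-485 and GNE-781 together (called the combination), or with dCBP-1, for 6 h, at 100 nM of each compound. A-485 blocks the catalytic acetyltransferase domain of the coactivators CBP and p300, GNE-781 occupies their bromodomain, and dCBP-1 is a degrader that removes both proteins. Each of the 5 groups had 3 libraries, 15 in all, of 3′ mRNA tags (Lexogen QuantSeq), in which a transcript gives tags near its 3′ end whatever its length. All groups are 1 cell line at 1 time point, and the labels do not state that each replicate was its own culture. The p-values therefore speak to the spread among these libraries alone.

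The MAF family has large members, MAF among them, that carry an activation domain, and small members, MAFF, MAFG and MAFK, that lack one. Small MAF proteins bind DNA as pairs with each other or with partners such as NRF2 or BACH1, whereas MAF is an oncogene in myeloma when a translocation brings it under an immunoglobulin enhancer. DEPTOR binds and inhibits the kinase mTOR, and NUAK1, also called ARK5, is a kinase of the AMPK-related family.

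Total reads recovered from the values ran from 13.1 to 18.29 M per library. DMSO libraries 1 and 2 stood apart from the rest, with 22.8% and 19.4% of reads from mitochondrially encoded genes against 14.1% to 16.7% in the other 13, and with 16287 and 17386 genes that had a read at an equal depth of 13.1 M reads against 18727 to 20578 elsewhere. Results against DMSO are therefore also given without these 2 libraries where a call or a size depended on them, with the lone DMSO library then assumed to vary like the other groups. The 10 plasma cell markers all had reads, with a summed level of 68121 to 71521 in DMSO and 26089 to 27719 after dCBP-1. Markers of T cells, monocytes, stroma and epithelium summed to between 0 and 75.3 per library and list, with the epithelial sum at 2.11 to 7.28 in DMSO and 22.3 to 30.8 after dCBP-1, and CD3D, CSF1R, FCGR3A, S100A8 and KRT19 were at 0 in all 15.

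RefSeq (GRCh38.p14) start sites were found for 4 of the 6 genes, and the 250 bases before the start are shown for MAF, which changed most, for MAFF, whose response had another order, and for NUAK1, as the target with a sequence at hand. Capitals mark matches, on either strand, to the MAF recognition core TGCTGA, the AP-1 type element TGAGTCA, the antioxidant response element core TGACNNNGC and the cAMP response element TGACGTCA, the last of which was added after the sequences were seen.
MAF, chr16:79600738-79600987, minus strand: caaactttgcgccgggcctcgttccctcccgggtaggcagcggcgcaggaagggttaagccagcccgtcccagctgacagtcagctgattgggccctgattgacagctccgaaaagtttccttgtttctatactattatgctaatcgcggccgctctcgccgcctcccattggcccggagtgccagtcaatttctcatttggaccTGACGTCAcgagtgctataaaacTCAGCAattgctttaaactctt
MAFF, first of 2 start sites, chr22:38201744-38201993, plus strand: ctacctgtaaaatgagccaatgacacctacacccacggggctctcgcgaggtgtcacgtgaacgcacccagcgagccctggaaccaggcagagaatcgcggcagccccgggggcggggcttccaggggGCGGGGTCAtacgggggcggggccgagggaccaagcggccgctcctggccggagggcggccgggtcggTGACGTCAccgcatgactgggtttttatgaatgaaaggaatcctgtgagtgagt
NUAK1, chr12:106138955-106139204, minus strand: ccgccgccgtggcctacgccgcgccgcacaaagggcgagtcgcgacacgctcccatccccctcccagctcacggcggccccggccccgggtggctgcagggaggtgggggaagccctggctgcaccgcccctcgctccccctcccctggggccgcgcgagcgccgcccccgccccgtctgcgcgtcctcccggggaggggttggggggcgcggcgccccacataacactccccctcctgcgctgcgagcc
In the MAF sequence the recognition core lies 22 bases and the cAMP element 45 bases before the start. In the MAFF sequence the antioxidant core lies 122 bases and the cAMP element 54 bases before the start. The NUAK1 sequence, the second MAFF start and the MAFG sequence hold none of the 4 motifs, and no match overlapped another. Of 35116 promoter sequences of the same length, 14.0% hold the recognition core, 4.2% the AP-1 type element, 10.9% the antioxidant core and 1.65% the cAMP element. G and C made up 54.4% of the MAF sequence, 65.6% of the MAFF sequence and 79.6% of the NUAK1 sequence. Tags from 3′ ends do not show which start site was used.

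MAF had the highest tag level of the 4 family members in DMSO, and with dCBP-1 its tag level lay below those of MAFG and MAFK. Its normalized read count was 15296, 18021 and 15865 in the 3 DMSO libraries, a mean above that of 99.3% of the tested genes. With A-485 it was 11187, 9390 and 10179, and with GNE-781 it was 6262, 6753 and 7482. The combination gave 5148, 5547 and 6709, and dCBP-1 gave 694, 751 and 502, which rest on 423 to 930 reads. Every treated library lay below every DMSO library, the dCBP-1 libraries lay below all others, and only GNE-781 and the combination overlapped. MAF changed by −0.68 ± 0.14 (SE, log2 scale) with A-485 (limma adjusted p = 0.01), by −1.26 ± 0.14 with GNE-781 (adjusted p = 6.4e-07), by −1.504 ± 0.14 with the combination (adjusted p = 2.3e-08) and by −4.67 ± 0.14 with dCBP-1 (adjusted p = 2.7e-20). The last is a fall to 3.92% of the DMSO level, and 8 of the 16104 tested genes had a lower log2 fold change. The call with A-485 ended without DMSO library 2 (−0.61, adjusted p = 0.094), without A-485 library 2 (−0.62, adjusted p = 0.071) and without DMSO libraries 1 and 2 together (−0.63, adjusted p = 0.23), while the other calls against DMSO held in all 18 alternatives.

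**Figure D1:**
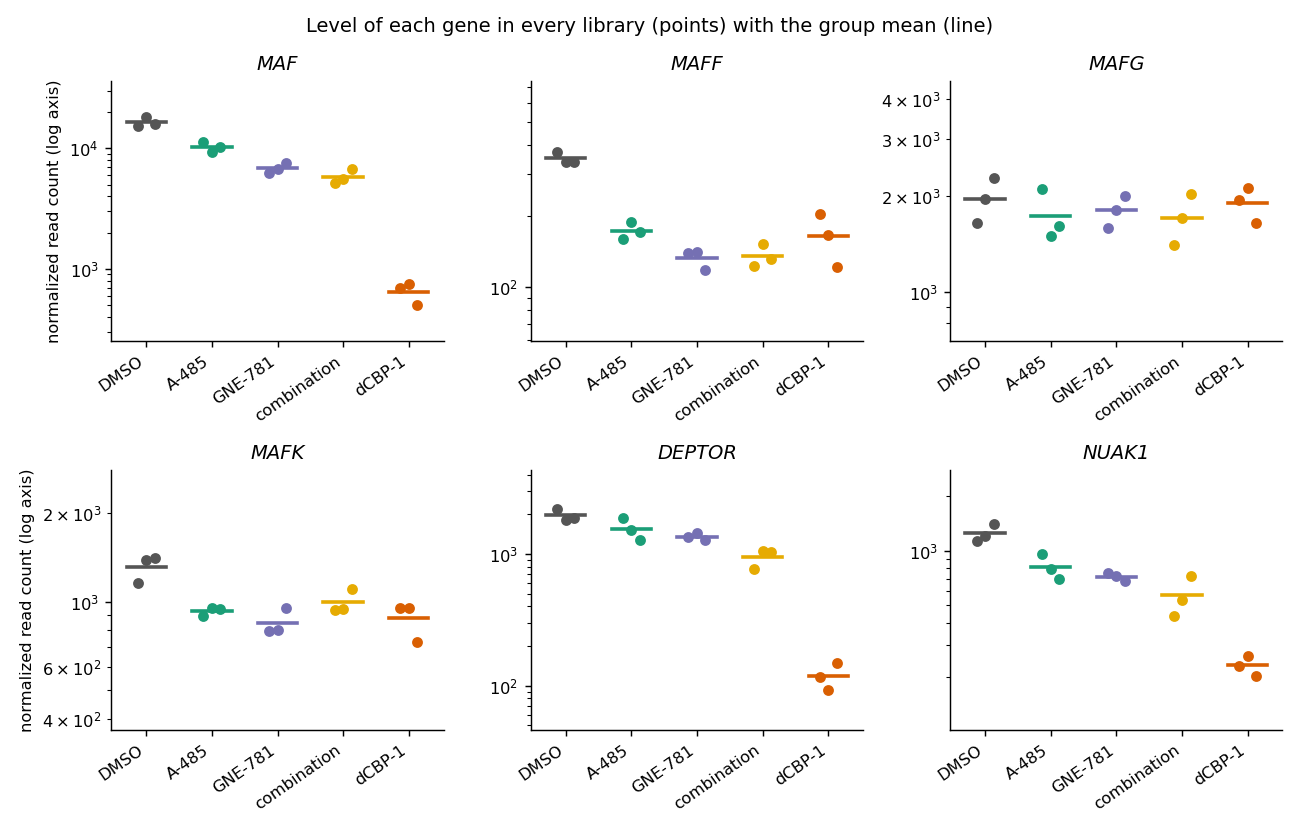
Normalized read count (log axis, scaled per panel) of the 6 genes in each of the 15 libraries by treatment, with points for libraries and a line for the group mean of 3. MAF, DEPTOR and NUAK1 step down from DMSO to dCBP-1, MAFF and MAFK sit lower in all treated groups, and MAFG overlaps throughout.

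DEPTOR, the mTOR inhibitor, fell with every treatment but A-485, and most with dCBP-1. It had 2177, 1805 and 1889 normalized reads in DMSO, 1871, 1528 and 1271 with A-485, and 1354, 1440 and 1267 with GNE-781. The combination gave 766, 1054 and 1038, and dCBP-1 gave 117, 92.1 and 148, from 114 to 126 reads per library. The A-485 libraries overlapped both DMSO and GNE-781, whereas the combination and dCBP-1 libraries each lay below all libraries of the groups before them. The change with A-485 was −0.34 ± 0.17 and did not pass the test (adjusted p = 0.31). DEPTOR changed by −0.53 ± 0.17 with GNE-781 (adjusted p = 0.027), by −1.05 ± 0.17 with the combination (adjusted p = 4.4e-05) and by −4.05 ± 0.17 with dCBP-1 (adjusted p = 4.2e-18), to 6.05% of DMSO. The GNE-781 call ended in 6 of 18 alternatives, among them the fits without DMSO library 1 (−0.45, adjusted p = 0.11) or without any 1 of the 3 GNE-781 libraries (−0.57 to −0.48, adjusted p = 0.051 to 0.097), and without DMSO libraries 1 and 2 (−0.48, adjusted p = 0.26).

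NUAK1, the AMPK-related kinase, fell with all 4 treatments, and its mean was lowest with dCBP-1. Its normalized reads were 1137, 1202 and 1400 in DMSO, 956, 789 and 701 with A-485, and 749, 721 and 680 with GNE-781. They were 434, 533 and 728 with the combination and 231, 261 and 204 with dCBP-1. DMSO and dCBP-1 libraries were each apart from all others, and the 3 inhibitor groups overlapped one another. NUAK1 changed by −0.62 ± 0.16 with A-485 (adjusted p = 0.041), by −0.79 ± 0.16 with GNE-781 (adjusted p = 0.0012), by −1.17 ± 0.16 with the combination (adjusted p = 1e-05) and by −2.42 ± 0.16 with dCBP-1 (adjusted p = 6.6e-13), to 18.7% of DMSO. The A-485 call was lost in 8 of 18 alternatives, including the fits without DMSO library 1, 2 or 3 (adjusted p = 0.058, 0.13 and 0.069), without A-485 library 2 or 3 (adjusted p = 0.15 and 0.18) and without DMSO libraries 1 and 2 together (−0.79, adjusted p = 0.2).

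MAFF fell with all 4 treatments, and its mean was lowest with GNE-781 rather than with dCBP-1. MAFF, a small MAF gene known to be induced by stress and cytokines, had 372, 339 and 340 normalized reads in DMSO, 159, 188 and 171 with A-485, and 139, 142 and 118 with GNE-781. It had 123, 152 and 132 with the combination and 204, 166 and 122 with dCBP-1. All DMSO libraries lay above all treated ones, while the dCBP-1 libraries spread across the range of the other treatments. MAFF changed by −1.02 ± 0.19 with A-485 (adjusted p = 0.0041), by −1.39 ± 0.19 with GNE-781 (adjusted p = 1.1e-05), by −1.37 ± 0.19 with the combination (adjusted p = 1.1e-05) and by −1.12 ± 0.19 with dCBP-1 (adjusted p = 3.2e-05). Without DMSO libraries 1 and 2 the A-485 value was −0.98 (adjusted p = 0.18), and the other 3 calls remained in every alternative.

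MAFK had 1157, 1385 and 1406 normalized reads in DMSO, 896, 950 and 944 with A-485, and 794, 799 and 954 with GNE-781. It had 937, 944 and 1107 with the combination and 955, 949 and 732 with dCBP-1. Treated libraries again lay below all DMSO libraries, and the treated groups overlapped one another. MAFK changed by −0.63 ± 0.14 with GNE-781 (adjusted p = 0.002), by −0.40 ± 0.14 with the combination (adjusted p = 0.037) and by −0.59 ± 0.14 with dCBP-1 (adjusted p = 0.0011). With A-485 the value was −0.49 ± 0.14, just short of the threshold (adjusted p = 0.053), and it passed with DESeq2 (−0.43, adjusted p = 0.02), with the filter at 20 (−0.49, adjusted p = 0.049) and without DMSO library 1 (−0.58, adjusted p = 0.048). The combination call was lost in 8 of 18 alternatives, among them the fits without DMSO library 2 (−0.36, adjusted p = 0.13), DMSO library 3 (−0.35, adjusted p = 0.078), combination library 1 (−0.36, adjusted p = 0.1) or combination library 2 (−0.36, adjusted p = 0.14), and without DMSO libraries 1 and 2 together (−0.50, adjusted p = 0.11).

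MAFG, the small MAF gene with the highest level here, did not pass the test in any comparison. Its normalized reads were 1645, 1956 and 2275 in DMSO and 1932, 2116 and 1648 with dCBP-1, and the means of the other groups were 1735 ± 318 (SD, n = 3) with A-485, 1798 ± 203 with GNE-781 and 1708 ± 305 with the combination. All 5 groups overlapped. The dCBP-1 change was −0.04 ± 0.15 (adjusted p = 0.86), with a 95% interval of −0.35 to 0.28.

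**Figure D2:**
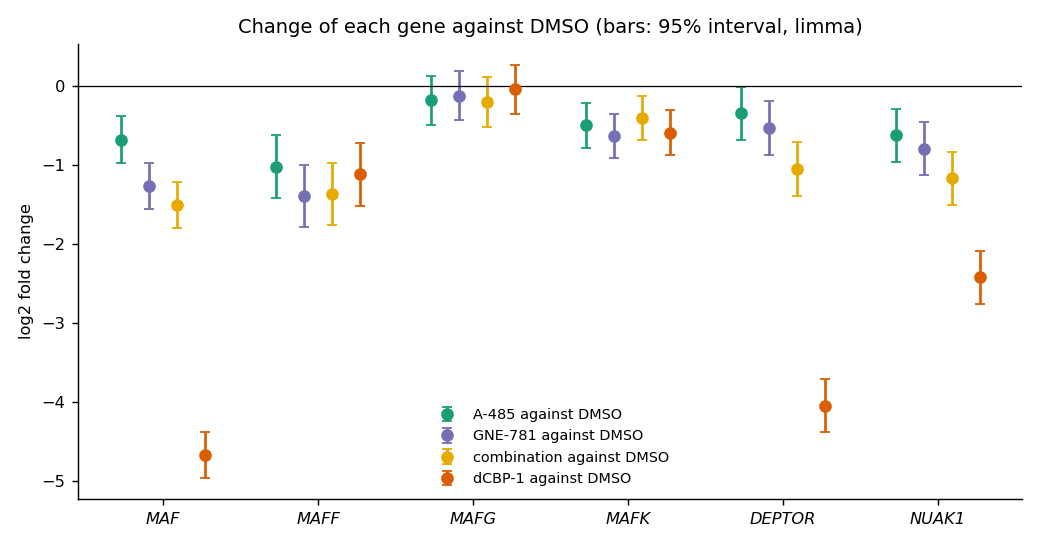
Log2 fold change against DMSO of each of the 6 genes (points) with the 95% interval of the limma fit (bars), coloured by treatment. For dCBP-1, MAF (−4.67), DEPTOR (−4.05) and NUAK1 (−2.42) lie far below their inhibitor values, whereas MAFF, MAFG and MAFK lie beside theirs.

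Counted together, 3 of the 6 genes fell with A-485, where 1.79% of all tested genes fell, and 5 of 6 with GNE-781, where 8.81% did. Also 5 of 6 fell with the combination, against 9.6% of all tested genes, and 5 of 6 with dCBP-1, against 18.5%. None of the 6 rose against DMSO, where 0.348%, 7.82%, 11.4% and 19.3% of all tested genes did so in the same order. The median over the 6 was −0.56, −0.71, −1.11 and −1.77, beside medians of −0.03, 0.07, 0.09 and 0.07 over all tested genes. These 4 comparisons share the DMSO libraries and are not independent. Without DMSO libraries 1 and 2, 0 of the 6 passed with A-485 (0.082% of all tested genes did, in either direction) and all 5 dCBP-1 calls remained.

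The treatments were next compared with each other. These fold changes do not use the DMSO libraries, which still enter the estimate of spread shared by the 5 groups. Against the combination, dCBP-1 lowered 3 of the 6 genes, where 5.61% of all tested genes fell. MAF changed by −3.17 ± 0.14 (adjusted p = 3.1e-16), DEPTOR fell to 12.5% of the combination level (adjusted p = 2e-14) and NUAK1 changed by −1.26 ± 0.16 (adjusted p = 1.8e-06). For the small MAF genes the interval of this difference was −0.15 to 0.65 for MAFF, −0.15 to 0.48 for MAFG and −0.47 to 0.09 for MAFK, none of which passed the test. The same 3 genes, MAF, DEPTOR and NUAK1, were lower with dCBP-1 than with GNE-781 alone (7.13% of all tested genes were) and than with A-485 alone (11.6% were). All of these calls held in every alternative.

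Among the inhibitor treatments the differences were smaller. Of the 6 genes, 2 were lower with the combination than with A-485, where 1.57% of all tested genes were: MAF (−0.83 ± 0.14, adjusted p = 0.0008) and DEPTOR (−0.70 ± 0.17, adjusted p = 0.013). The DEPTOR call ended without A-485 library 1 (−0.56, adjusted p = 0.079), A-485 library 2 (−0.71, adjusted p = 0.051) or combination library 1 (−0.55, adjusted p = 0.081). NUAK1 was at −0.55 ± 0.16 in this comparison (adjusted p = 0.059) and passed in 6 of 17 alternatives, among them both other scalings (−0.65 each, adjusted p = 0.0034 with TMM and 0.003 with median ratios) and the fit without combination library 3 (−0.75). Only MAF was lower with GNE-781 than with A-485 (−0.59 ± 0.14, adjusted p = 0.038), where 0.727% of all tested genes were, and that call was lost without any 1 of the 6 libraries compared. Between the combination and GNE-781, 0 of 16104 tested genes passed by limma, 494 had an unadjusted p below 0.05, edgeR called 0 and DESeq2 called 7. Of the 6 genes, 0 passed by any of these tools and 2 had an unadjusted p below 0.05 by limma, DEPTOR (−0.52 ± 0.17, interval −0.86 to −0.18, adjusted p = 1) and NUAK1 (−0.37 ± 0.16, interval −0.71 to −0.04, adjusted p = 1).

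Whether the inhibitors together gave the sum of their separate effects was tested with an interaction term, the log2 change of the combination less the summed log2 changes of the single compounds, where 0 is additive and a positive value is a smaller fall than the sum. By limma 0 of the 6 passed, and 0.435% of all tested genes were higher and 0.0124% lower. Of the 6, 3 had an unadjusted p below 0.05, as did 1410 of the 16104 tested genes. MAFF had the largest value of the 6 (1.04 ± 0.27, adjusted p = 0.092), followed by MAFK (0.73 ± 0.19, adjusted p = 0.11) and MAF (0.44 ± 0.20, adjusted p = 0.54). edgeR called 0 of the 6 and 4 of all tested genes. DESeq2 called 106 of all tested genes, among them MAFF (0.96, adjusted p = 0.038) and MAFK (0.64, adjusted p = 0.046). DEPTOR had a value of −0.18 ± 0.23 and NUAK1 of 0.24 ± 0.23.

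Set in order of level, MAF, DEPTOR and NUAK1 each ran from DMSO through A-485, GNE-781 and the combination to dCBP-1. Of all tested genes, 7.44% had this order of group means, as did 35.2% of the 2987 genes that fell with dCBP-1. Neighbours in the order did not pass the test for GNE-781 and the combination in MAF, for the first 4 groups in DEPTOR, and for the 3 inhibitor groups in NUAK1. MAFF and MAFK had their lowest mean with GNE-781. In MAFF every treatment passed against DMSO and no 2 treatments differed past the threshold, and the same was true of MAFK apart from A-485 against DMSO (adjusted p = 0.053).

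Within a library, the ratio of each gene to MAF needs no scaling between libraries. All of these ratios share MAF, which itself fell with every treatment and changed by −4.67 (log2) with dCBP-1. A gene that stayed level would therefore also rise relative to MAF. The log2 ratio of MAFG to MAF went from −3.07 ± 0.24 (SD, n = 3) in DMSO to 1.56 ± 0.13 with dCBP-1, a difference of 4.63. The differences were 4.09 for MAFK, 3.56 for MAFF and 2.25 for NUAK1. In none of these 4 ratios did dCBP-1 and DMSO libraries overlap. The fall of MAF alone sets this for any gene that fell much less, so it is no result about the 4 genes. Each ratio gave p = 0.1 (exact permutation test, two-sided), the smallest that 3 against 3 libraries can give. This test cannot separate a change of the gene from the fall of MAF. The 4 tests share the MAF values and are not independent. The share of all tested genes whose ratio to MAF did not overlap was not counted. The ratio of DEPTOR to MAF was −3.07 ± 0.25 in DMSO and −2.44 ± 0.64 with dCBP-1, a difference of 0.63 in which the libraries overlapped (exact permutation p = 0.2). For DEPTOR the ratio lay above all DMSO libraries with GNE-781 (difference 0.73) and with the combination (difference 0.46). In dCBP-1 library 3 MAF was lowest and DEPTOR highest of the 3. With the inhibitors, the MAFG ratio to MAF rose above all DMSO libraries in each of the 3 groups (differences of 0.50, 1.15 and 1.30 with A-485, GNE-781 and the combination), whereas the MAFF ratio to MAF overlapped DMSO in all 3 (−0.34, −0.13 and 0.14).

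**Figure D3:**
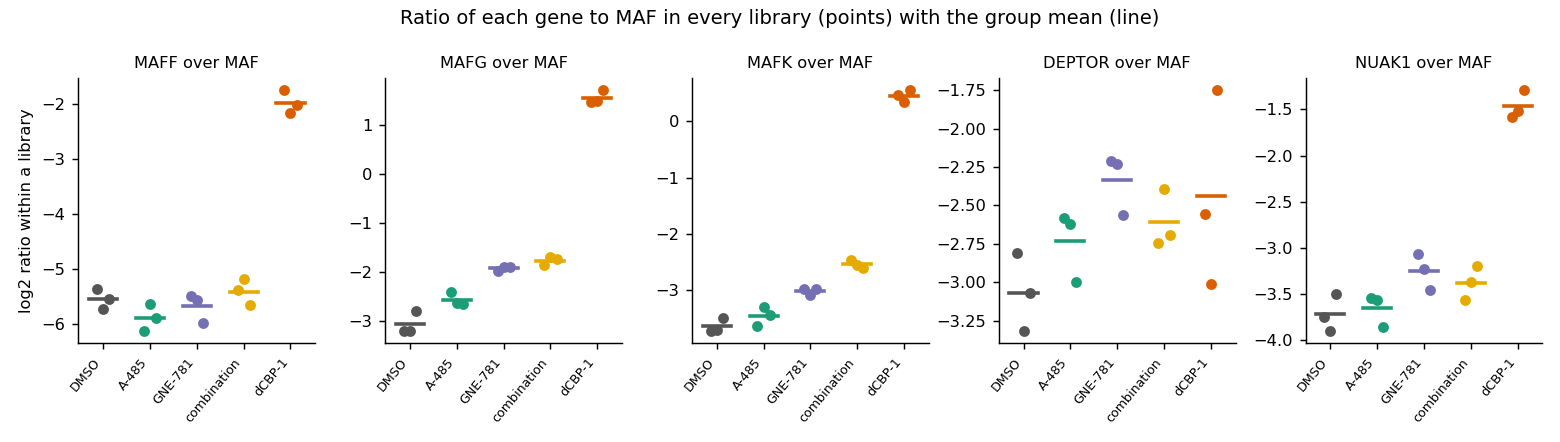
Log2 ratio of each of 5 genes to MAF within each library (points, with the mean of 3 as a line) by treatment, on a separate vertical scale per panel. The small MAF genes and NUAK1 stand far higher relative to MAF with dCBP-1 than in DMSO, while the DEPTOR ratio overlaps between these groups. MAF itself fell with dCBP-1, and every ratio holds that change.

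The genes most like MAF were sought among the 7996 tested genes with a mean at or above the median, by Pearson correlation of log2 values over the 15 libraries, which share group structure and scaling. The 5 most like it were PRDM1 (r = 0.996), the driver of plasma cell differentiation, TBL1XR1 (0.995), a corepressor component, MYC (0.994), IRF2BP2 (0.994) and BHLHE41 (0.994). DEPTOR had r = 0.97 with MAF, and 63 genes were closer to MAF than it. NUAK1 also had r = 0.97, with 94 genes closer. Among the small MAF genes r with MAF was 0.42 for MAFF, 0.54 for MAFK and −0.0026 for MAFG. Over the 12 libraries without dCBP-1 the r of MAFF with MAF was 0.90, that of MAFK 0.74, that of MAFG 0.44, that of DEPTOR 0.86 and that of NUAK1 0.92. Nearest to DEPTOR was CCND2, the cyclin D2 gene and also a listed MAF target (r = 0.991), then UBE2QL1 (0.990), CABLES1 (0.990), IKZF3 (0.987), a lymphoid transcription factor, and TMCC3 (0.987). Nearest to NUAK1 were MAK16 (0.988), FEM1B (0.985), CHSY1 (0.984), VIM (0.984) and ARHGAP18 (0.984).

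Of the other large members of the family, NRL and MAFA had few reads in these cells. NRL, the retinal member, went from 42.9 ± 5.83 in DMSO to 9.95 ± 1.53 with dCBP-1 and fell with GNE-781 (−1.66 ± 0.45, adjusted p = 0.01), the combination (−1.42 ± 0.45, adjusted p = 0.023) and dCBP-1 (−2.00 ± 0.45, adjusted p = 0.00064). Without DMSO libraries 1 and 2 the first 2 of these were lost (−1.84, adjusted p = 0.085, and −1.60, adjusted p = 0.13). MAFA lay between 1.58 and 16.6 in all libraries and did not pass the test.

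DEPTOR and NUAK1 are part of a list of 10 MAF targets in myeloma, of which 9 were tested and SPP1 was too low. With dCBP-1 9 of the 9 tested fell, with A-485 3, with GNE-781 5 and with the combination 6, and 0 rose in any of these comparisons. The list's medians were −0.41, −0.51, −0.90 and −2.62 from A-485 to dCBP-1, beside −0.03, 0.07, 0.09 and 0.07 over all tested genes. The dCBP-1 median became −2.42 with CX3CR1 set at the 3-read limit per library, because that gene had no read in any dCBP-1 library and a mean of only 5.55 in DMSO. The shares of all tested genes that fell were 1.79%, 8.81%, 9.6% and 18.5% from A-485 to dCBP-1. Without DMSO libraries 1 and 2 the counts for these MAF targets in myeloma were 1, 2, 4 and 9. CCND2 went from 21176 ± 319 in DMSO to 2560 ± 433 with dCBP-1 (−3.06 ± 0.15, adjusted p = 3.3e-16). CCR1, a chemokine receptor, went from 8370 ± 913 to 538 ± 70.8 (−3.96 ± 0.13, adjusted p = 4.8e-20) and did not pass with A-485 (−0.12 ± 0.13, adjusted p = 0.73). RND3 had the largest fall of the tested targets with reads in every group (−4.23 ± 0.17, adjusted p = 3.5e-18). It fell with A-485 (−1.11 ± 0.17, adjusted p = 0.00059) and did not pass with GNE-781 (−0.28 ± 0.17, adjusted p = 0.28). NOTCH2, a Notch receptor, changed by −1.87 ± 0.18 with dCBP-1, and SMAD1 and the integrin gene ITGB7 changed least, by −0.76 ± 0.16 and −0.68 ± 0.19.

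**Figure D4:**
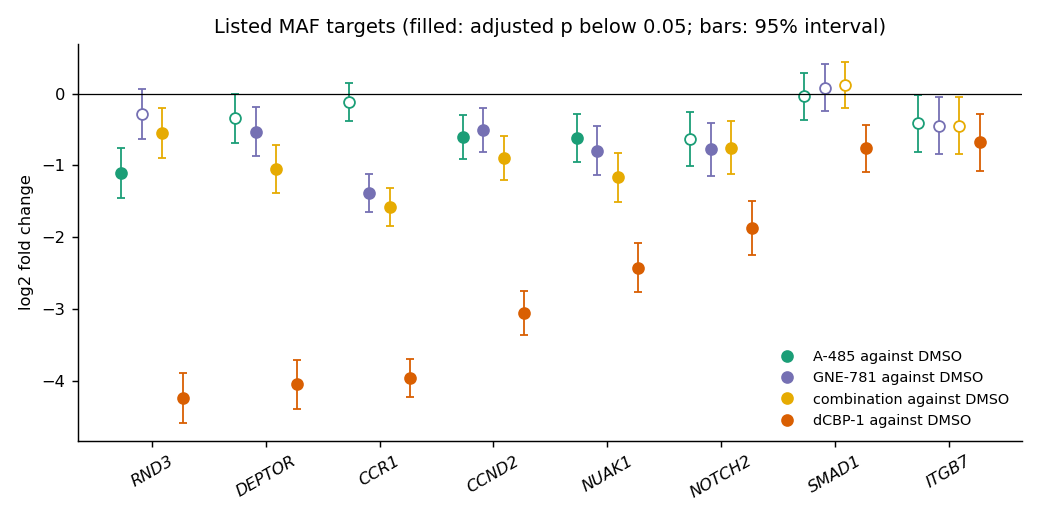
Log2 fold change against DMSO of 8 listed MAF targets, DEPTOR and NUAK1 included, with 95% intervals from limma, ordered by the dCBP-1 value and filled where the adjusted p is below 0.05. CX3CR1, with no reads after dCBP-1, is left out; all 8 shown are filled for dCBP-1, from −4.23 for RND3 to −0.68 for ITGB7.

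Compared with the combination, dCBP-1 lowered 7 of the 9 tested targets, against 5.61% of all tested genes. The list's median was −1.51, or −1.71 without CX3CR1, which is at or under the 3-read limit in both groups, beside −0.03 over all tested genes. SMAD1 was at 0.12 ± 0.16 with the combination against DMSO (adjusted p = 0.65) and fell with dCBP-1 relative to the combination (−0.88 ± 0.16, adjusted p = 0.00024).

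A list of 7 genes held partners of small MAF proteins and KEAP1, an inhibitor of the partner NRF2. NFE2 was too low to test. Of the other 6 listed genes, 3 fell with dCBP-1 and 0 rose, beside 18.5% and 19.3% of all tested genes. The median was −0.35 beside 0.07. NFE2L3 (NRF3) went from 1931 ± 339 to 447 ± 92.5 (−2.12 ± 0.20, adjusted p = 6.2e-10). BACH2, a transcriptional repressor, went from 222 ± 21.8 to 58.2 ± 1.98 (−1.91 ± 0.20, adjusted p = 7e-09), and BACH1 changed by −0.41 ± 0.15 (adjusted p = 0.037). NFE2L2, which encodes NRF2, was at 0.18 ± 0.14 (adjusted p = 0.35) and its inhibitor KEAP1 at −0.29 ± 0.14 (adjusted p = 0.11). With GNE-781 and with the combination only NFE2L3 of the 6 fell (−0.88 ± 0.20, adjusted p = 0.0024, and −1.07 ± 0.20, adjusted p = 0.00026), and with A-485 0 of 6 passed. Of all tested genes 8.81% fell with GNE-781, 9.6% with the combination and 1.79% with A-485.

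Genes of the antioxidant response, which pairs of NRF2 with small MAF proteins control, were listed in a set of 19, of which 18 were tested. With dCBP-1 1 of the 18 rose, where 19.3% of all tested genes did, and 4 fell, a share near the 18.5% of all tested genes. The median was 0.01 beside 0.07 over all tested genes. PIR rose (0.98 ± 0.22, adjusted p = 0.00071) but was at 0.41 without DMSO libraries 1 and 2 (adjusted p = 0.26). HMOX1, heme oxygenase 1, changed by −0.92 ± 0.24 (adjusted p = 0.0026), ME1 by −0.85 ± 0.18 (adjusted p = 0.00038), TXNRD1 by −0.61 ± 0.15 (adjusted p = 0.002) and TKT by −0.41 ± 0.16 (adjusted p = 0.047). NQO1, the usual reporter of this response, was at 0.41 ± 0.21 (adjusted p = 0.12). With A-485 and with the combination 0 of 18 passed. With GNE-781 only HMOX1 did (−0.67 ± 0.24, adjusted p = 0.049), a call lost without DMSO libraries 1 and 2 (−0.97). Of all tested genes 1.79%, 9.6% and 8.81% fell with A-485, the combination and GNE-781, and 0.348%, 11.4% and 7.82% rose.

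Of 7 genes for kinases, ligases and deubiquitinases that act on MAF protein, 2 rose and 2 fell with dCBP-1, beside 19.3% and 18.5% of all tested genes. OTUB1, a deubiquitinase, fell in all 4 comparisons, from −0.90 ± 0.14 with GNE-781 to −0.61 ± 0.14 with dCBP-1. Without DMSO libraries 1 and 2 its calls ended with dCBP-1 (−0.39, adjusted p = 0.12), with A-485 (−0.55, adjusted p = 0.25) and with the combination (−0.47, adjusted p = 0.12). With dCBP-1 GSK3A (0.55 ± 0.16, adjusted p = 0.0063) and HERC4 (0.56 ± 0.20, adjusted p = 0.026) rose, both calls lost without those libraries (0.38, adjusted p = 0.19, and 0.49, adjusted p = 0.14), and USP7 changed by −0.34 ± 0.13 (adjusted p = 0.04).

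For DEPTOR, the genes of the mTOR complexes in which its protein sits were read beside it. Of 11 listed and 10 tested, 5 fell with dCBP-1, DEPTOR itself among them, and 0 rose, beside 18.5% and 19.3% of all tested genes, with a median of −0.35 beside 0.07. The others that fell were AKT1S1, which encodes the inhibitory subunit PRAS40 (−1.33 ± 0.17, adjusted p = 3.7e-07), PRR5L (−2.29 ± 0.31, adjusted p = 8.9e-07), TELO2 (−1.01 ± 0.21, adjusted p = 0.00024) and MLST8 (−0.50 ± 0.14, adjusted p = 0.0039). The kinase MTOR itself (0.19 ± 0.17, adjusted p = 0.42), RPTOR (0.08 ± 0.20, adjusted p = 0.79) and RICTOR (0.01 ± 0.16, adjusted p = 0.96) did not pass. Of 25 upstream and downstream genes of the pathway, 9 rose with dCBP-1, beside 19.3% of all tested genes, and 5 fell, a share near the 18.5% of all tested genes. Without DMSO libraries 1 and 2 fewer of these 25 genes rose, and a smaller share of all tested genes passed. SGK1, a kinase downstream of mTOR complex 2, fell from 799 ± 128 to 101 ± 28.0 normalized reads (adjusted p = 1.5e-14) and EIF4EBP1, a translation repressor, changed by −0.96 ± 0.15 (adjusted p = 9.2e-06), while TSC1 (1.10 ± 0.14, adjusted p = 5e-07) and RRAGA (1.13 ± 0.19, adjusted p = 2e-05) rose. Of 6 genes of the ubiquitin ligase that removes DEPTOR protein, 1 rose and 2 fell, beside 19.3% and 18.5% of all tested genes. BTRC, a substrate receptor, rose (0.98 ± 0.16, adjusted p = 1.5e-05), and RBX1 (−0.47 ± 0.13, adjusted p = 0.0035) and CUL1 (−0.34 ± 0.13, adjusted p = 0.039) fell. FBXW11, also listed, was at 0.10 ± 0.14 (adjusted p = 0.63).

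For NUAK1, 15 AMPK-related kinase genes were listed and 13 tested, of which 5 rose and 3 fell with dCBP-1, beside 19.3% and 18.5% of all tested genes. The share that fell was near that of all tested genes, and the median was 0.11 beside 0.07. The fall of NUAK1 (−2.42) was the largest of the list. Its paralog NUAK2 changed by −1.08 ± 0.28 (adjusted p = 0.0026) and SIK3 by −0.82 ± 0.16 (adjusted p = 0.00016). PRKAA2, an AMPK catalytic subunit, rose from 16.5 ± 16.3 to 79.6 ± 1.24 (2.61 ± 0.44, adjusted p = 2.3e-05), and MARK4 rose (0.89 ± 0.17, adjusted p = 0.00015). Without DMSO libraries 1 and 2 the rises of this list and the fall of NUAK2 no longer passed. A smaller share of all tested genes passed as well. In that fit PRKAA2 was at 1.15, MARK4 at 0.54 and NUAK2 at −0.76. Of 6 tested genes for the LKB1 complex upstream of NUAK1 and for its myosin phosphatase substrate, 1 rose with dCBP-1, beside 19.3% of all tested genes. This was CAB39L (0.97 ± 0.35, adjusted p = 0.03), a call lost without those 2 libraries (0.74, adjusted p = 0.26), and STK11, which encodes LKB1, was at −0.14 ± 0.13 (adjusted p = 0.41).

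**Figure D5:**
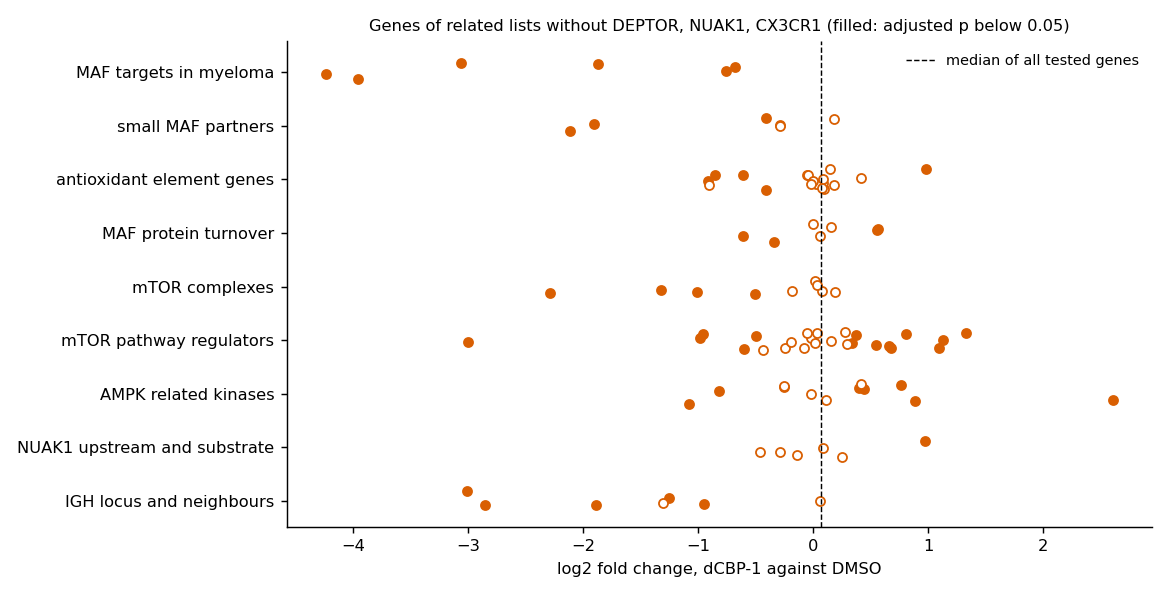
Log2 fold change with dCBP-1 against DMSO of the tested genes in 9 lists around MAF, DEPTOR and NUAK1, leaving out DEPTOR, NUAK1 and CX3CR1, with 1 point per gene, filled where the limma adjusted p is below 0.05. The dashed line is the median of all tested genes (0.07), and the remaining MAF targets lie wholly to its left while antioxidant genes gather around it.

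Because the translocation joins MAF to the immunoglobulin heavy chain locus, genes of both loci were read in the same libraries. Of 14 heavy chain locus genes and neighbours, 7 were tested and 5 of these fell with dCBP-1, beside 18.5% of all tested genes. IGHG1 went from 1714 ± 191 normalized reads in DMSO to 1153 ± 92.1 with A-485, 664 ± 95.8 with GNE-781, 618 ± 116 with the combination and 218 ± 65.7 with dCBP-1. Its changes were −0.57 ± 0.18 (adjusted p = 0.097), −1.37 ± 0.18 (adjusted p = 5.6e-06), −1.48 ± 0.18 (adjusted p = 1.2e-06) and −3.01 ± 0.18 (adjusted p = 4e-14), and since IGHG genes are close copies of each other their reads may be split between them. CRIP1 (−1.89 ± 0.28, adjusted p = 3.7e-06) and TMEM121 (−0.95 ± 0.18, adjusted p = 9.2e-05) also fell with dCBP-1, and MTA1 was at 0.06 ± 0.19 (adjusted p = 0.83). At the MAF locus, 2 of 5 measured neighbours had enough reads to test and neither passed with dCBP-1. WWOX, the gene next to MAF, was at −0.31 ± 0.25 (adjusted p = 0.36), with 87.9 ± 10.2 normalized reads in DMSO and 71.9 ± 17.2 with dCBP-1.

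Some member values can hold reads of overlapping genes, because the strand setting of the counting is not given in the sources used here. On the opposite strand of MAFF lies PLA2G6, with 21.2 to 51.2 normalized reads over the libraries, and opposite MAFK lies TMEM184A, with 3.16 to 19.3. SIRT7 overlaps MAFG on the same strand, with 781 to 1109. Opposite DEPTOR lies AP005717.1, with 0 to 45.2, and opposite NUAK1 AC011595.1, with 0 to 1.59. The part of these genes in the member values was not tested. The plasma cell markers moved in the same libraries as MAF, and a link between the 2 was not tested. Of these 10 markers 9 fell with dCBP-1 (median −2.03), 9 with the combination, 8 with GNE-781 and 3 with A-485, beside 18.5%, 9.6%, 8.81% and 1.79% of all tested genes. In bulk RNA, fewer cells of a kind and less of a transcript per cell cannot be told apart.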

How the data were processed

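RNA of 15 libraries was analysed, grouped by their titles into 5 groups of 3. The authors deposited a gene-level signal, normalized read counts, on build hg19 per the submitters' processing notes. The aligner, counting tool, annotation and normalization are not given in the sources used here. Libraries were made with the Lexogen QuantSeq 3′ kit from Trizol lysates with ERCC controls, per the labels' protocols, but the table used here holds 0 ERCC rows, so no value measures RNA per cell. The table used holds 47459 gene rows and 1 last row with no value; genes whose identifiers come after it are not analysed here. In each library 100% of values were whole multiples of 1 step, within 0.01 of a whole read, and reads were recovered from the steps (0.791 to 1.21 per read). Recovered reads were 13.1 to 18.29 M per library, and replicates differed by more than counting noise (chi-square per degree of freedom 5.61 to 46.5). In 2 combination libraries the treatment field gives GNE-782 or GNE-783, and the molecule field gives genomic DNA; titles and protocols were followed.

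Symbols were matched for 45779 identifiers (96.5%). Values were taken as log2(value + 1). The 16104 genes that reached 5 in 3 or more libraries were tested with limma-trend (limma 3.58.1, R 4.3.3), two-sided, in 1 model of 5 group means, in 11 comparisons, each with Benjamini-Hochberg adjustment over all tested genes and called below an adjusted p of 0.05. "Rose" and "fell" are used of called genes. Errors of log2 fold changes are SE and errors of means are SD (n = 3); fold changes of low genes are understated by the added 1. edgeR 4.0.16 and DESeq2 1.42.0 on recovered reads were alternatives; edgeR called 364, 3505, 4097 and 6612 genes against DMSO for A-485, GNE-781, the combination and dCBP-1. The fit was tested on simulated data. The members and gene lists were chosen with earlier results of these data known. From each list up to 4 genes with the smallest p, or all where 4 or fewer passed, are named. Also named are the 5 genes most like MAF, DEPTOR and NUAK1 by correlation. CX3CR1, SMAD1, ITGB7, NOTCH2, MLST8, NFE2L2, KEAP1, NQO1, MTOR, RPTOR, RICTOR, FBXW11, NUAK2, STK11, MTA1, WWOX and MAFA were named after their values were seen. SRXN1, STRADA, MAFTRR, LINC01229 and TRAC matched no row. A comparison of protein sequences was planned and not run. Not every listed gene is reported here.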

Additional observations from a re-analysis of the deposited data

How the results depend on the processing

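Over 17 to 24 alternatives per comparison (scaling, pseudocount, filter, groups in the fit, tool, replicate block, each library left out), 1140 member values kept their side of the threshold, 37 lost it and 11 gained it, and none changed direction while called. The 5 calls with dCBP-1 against DMSO, and the 3 against each inhibitor treatment, remained in all. The number of the 6 genes called with A-485 against DMSO was 0 without DMSO libraries 1 and 2, and 1 to 3 with single libraries left out. For the combination against A-485 it was 1 to 3 with single libraries left out. For GNE-781 against A-485 it was 0 without the filter, 0 with the replicate block and 0 to 0 with single libraries left out. For non-additivity it was 2 with DESeq2 and 0 otherwise. Of the other genes listed, MT-ND6 with dCBP-1 against DMSO was at 0.67 (adjusted p = 0.062) with all libraries and passed at −0.67 (adjusted p = 0.015) without DMSO libraries 1 and 2; the cause was not tested. Deviations of same-numbered replicates did not pair the samples: of 30 correlations between groups (−0.53 to 0.40), 7 were over 0.1, and in 0 of 10 pairs of groups were all over it. With the replicate block NUAK1 with A-485 (adjusted p = 0.067), MAFK with the combination (adjusted p = 0.059) and MAF with GNE-781 against A-485 (adjusted p = 0.076) no longer passed. The share of all tested genes called ranged, over alternatives, from 0.082% to 7.11% with A-485, from 5.61% to 23.3% with GNE-781, from 6.82% to 27.2% with the combination and from 17.9% to 46.3% with dCBP-1, each against DMSO, and from 2.81% to 10.9% for dCBP-1 against the combination. Other scalings moved the median of all tested genes by at most 0.10 (log2). With 3 libraries per group, small differences between inhibitor treatments were not resolved.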
